A study of Mus musculus with 16 samples.

Results

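The proteasome is the large protease that degrades proteins marked with ubiquitin. The 44 genes described here encode its subunits, its activators and some chaperones of its assembly. They were chosen by name: all gene IDs that start with Psma, Psmb, Psmc, Psmd or Psme followed by a number, with 1 ID left out (Psmc3ip, which is named for binding a subunit). They make up 44 of the 24981 genes listed, in 5 classes: 8 Psma, 11 Psmb, 6 Psmc, 14 Psmd and 5 Psme genes. RNA was sequenced from the epidermis of newborn mice aged postnatal day 0 to 2, whose cells were split on a Percoll density gradient into a suprabasal and a basal fraction. The groups are the suprabasal and basal fractions of Dlx3 KO mice (n = 2 libraries each), of their Dlx3 WT counterparts (n = 2 each), both on a mixed CD-1 and C57BL/6 background, and of Fvb/N mice, which carry WT Dlx3 (n = 4 each). Dlx3 encodes a homeodomain transcription factor of epidermal differentiation. What drives the deletion of Dlx3 and how many animals went into a library are not given in the sources used here.

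All levels are RPKM, read counts corrected for gene length and for how many reads each library had mapped, as deposited. From the step between low values, depth was estimated at 33800000 to 42100000 reads in the Dlx3 libraries and 45900000 to 61700000 reads in the Fvb/N libraries. Dlx3 itself was at 2.64 and 2.24 RPKM in KO suprabasal libraries against 7.87 and 6.93 in WT suprabasal libraries, and at 2.35 and 2.16 in KO basal libraries against 11.16 and 11.01 in WT basal libraries. In Fvb/N it was at 11.1, 9.95, 7.05 and 14.98 RPKM in suprabasal libraries and 10.5, 8.17, 11.4 and 9.53 in basal libraries. The 7 suprabasal keratinocyte markers (Krt1, Krt10, Lor, Ivl, Dsc1, Sbsn and Flg2) summed to 45680 to 53270 RPKM in the suprabasal libraries of the Dlx3 table, against 3598 to 5507 in its basal libraries. In Fvb/N the same sum was 89600, 91840, 43340 and 76350 in suprabasal libraries 1 to 4 and 33570, 38480, 5142 and 6036 in basal libraries 1 to 4. The 7 basal markers (Krt5, Krt14, Krt15, Itga6, Itgb4, Col17a1 and Trp63) summed to 7540 to 8430 RPKM in the suprabasal libraries of the Dlx3 table against 16440 to 16930 in its basal libraries. In Fvb/N they summed to 735.6, 737.2, 4055 and 1458 in suprabasal libraries 1 to 4 against 14260 to 17490 in basal libraries. Relative to the basal libraries of the same table, the suprabasal fraction thus kept more of the basal markers in the Dlx3 table than in Fvb/N. Fvb/N basal libraries 1 and 2 and suprabasal library 3 stand apart from the libraries that share their label.

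The particle has a core of stacked rings and regulatory caps. The outer rings are built from alpha subunits (Psma), which gate the channel, and the inner rings from beta subunits (Psmb), of which Psmb5, Psmb6 and Psmb7 carry the cutting sites. Interferon replaces those subunits with Psmb8, Psmb9 and Psmb10, which favours peptides for antigen presentation. The regulatory particle unfolds the substrate with a ring of ATPases (Psmc) and recognises and strips ubiquitin with non-ATPase subunits (Psmd), while Psme genes encode other activators of the core. Psmd5, Psmd9 and Psmd10 encode chaperones for assembly of the ATPase base and are counted here with the regulatory particle genes. The transcription factor Nfe2l1 raises proteasome genes together when proteasome activity is short, through antioxidant response elements in their promoters.

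Promoter windows are shown for 4 genes on which the results turn: the catalytic subunits Psmb5 and Psmb6, the interferon-induced Psmb8 and the ATPase Psmc5. Each window runs from 250 bases before to 50 bases after the annotated start (RefSeq, build GRCm38.p6, the assembly called mm10), is given in the direction of the gene, and has in capitals the letters that match TGACNNNGC, the core of the antioxidant response element, on either strand.
Psmb5 (chr14:54617946-54618245, minus strand): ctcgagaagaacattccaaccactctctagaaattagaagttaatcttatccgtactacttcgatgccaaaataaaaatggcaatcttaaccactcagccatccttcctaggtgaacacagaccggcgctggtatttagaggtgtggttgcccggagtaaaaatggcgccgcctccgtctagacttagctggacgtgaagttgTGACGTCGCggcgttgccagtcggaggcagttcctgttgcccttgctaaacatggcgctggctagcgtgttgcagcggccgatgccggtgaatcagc
Psmb6 (chr11:70525107-70525406, plus strand): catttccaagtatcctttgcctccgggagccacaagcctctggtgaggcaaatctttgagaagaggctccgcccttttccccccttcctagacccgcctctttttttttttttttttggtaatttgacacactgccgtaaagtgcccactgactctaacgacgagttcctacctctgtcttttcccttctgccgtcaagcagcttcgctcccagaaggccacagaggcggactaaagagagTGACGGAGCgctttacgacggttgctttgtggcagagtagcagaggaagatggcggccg
Psmb8 (chr17:34197945-34198244, plus strand): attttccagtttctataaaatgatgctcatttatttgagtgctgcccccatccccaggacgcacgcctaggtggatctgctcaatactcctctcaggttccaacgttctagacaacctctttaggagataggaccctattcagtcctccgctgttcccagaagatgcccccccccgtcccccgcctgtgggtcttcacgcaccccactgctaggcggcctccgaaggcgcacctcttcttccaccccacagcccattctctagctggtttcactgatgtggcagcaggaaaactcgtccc
Psmc5 (chr11:106255935-106256234, plus strand): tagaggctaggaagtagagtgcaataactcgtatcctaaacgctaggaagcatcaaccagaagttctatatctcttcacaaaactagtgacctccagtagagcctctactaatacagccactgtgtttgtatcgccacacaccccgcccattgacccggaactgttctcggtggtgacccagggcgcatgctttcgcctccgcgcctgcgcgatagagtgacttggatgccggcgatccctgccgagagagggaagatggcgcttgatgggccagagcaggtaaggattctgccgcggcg
The match starts 47 bases before the annotated start in Psmb5 and 9 bases before it in Psmb6, and the windows of Psmb8 and Psmc5 hold none. Windows were found for 37 of the 44 genes (40 windows, since some genes have several starts). TGACNNNGC was in 6 of these 40 windows (15%: Psmb5, Psmb6, Psmc6, Psmd9, Psmd12 and Psme4), against 12.4% of the 32851 windows of all genes. CCAAT, the letters bound by the NF-Y factors, was in 14 of 40 (35.0%) against 37.4% of all, and GAAA followed after any 2 bases by GAAA, the core of the interferon-stimulated response element, in 4 of 40 (10%: Psmb3, Psmd4, Psmd9 and Psme1) against 3.4%. All motifs were searched on both strands, matches of different motifs shared letters in 0 cases in these windows, and a match is only a match of letters.

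Proteasome transcripts were found at similar summed levels within each group of the Dlx3 table and spread more in Fvb/N. The 44 genes summed to 1750 and 1754 RPKM in KO suprabasal libraries, 1592 and 1605 in WT suprabasal libraries, 2388 and 2433 in KO basal libraries and 2479 and 2536 in WT basal libraries. In Fvb/N they summed to 1908, 2058, 1461 and 1836 RPKM in suprabasal libraries and 1603, 1827, 1978 and 2100 in basal libraries. That is 0.523% to 0.719% of the RPKM total of a library. Among the tested genes Psmb4, a beta subunit without a cutting site, was highest in all 6 groups, at 96.1 ± 1.49 RPKM in KO suprabasal, 88.4 ± 2.63 in WT suprabasal, 138.4 ± 3.54 in KO basal and 144.7 ± 4.51 in WT basal libraries (SD, n = 2 each). The lowest 3 in every group were Psmb8, Psmb9 and Psmb10. Psma8 (testis), Psmb11 (thymus) and Psme2b stayed at or under 1.34 RPKM in all libraries and did not pass the filter on low values (1 RPKM in at least 2 libraries of the Dlx3 table or 4 of the Fvb/N table), so 41 of 44 genes were tested in each table. Psme2b is a near-identical copy of Psme2, so reads of this pair could be assigned to either.

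**Figure D1:**
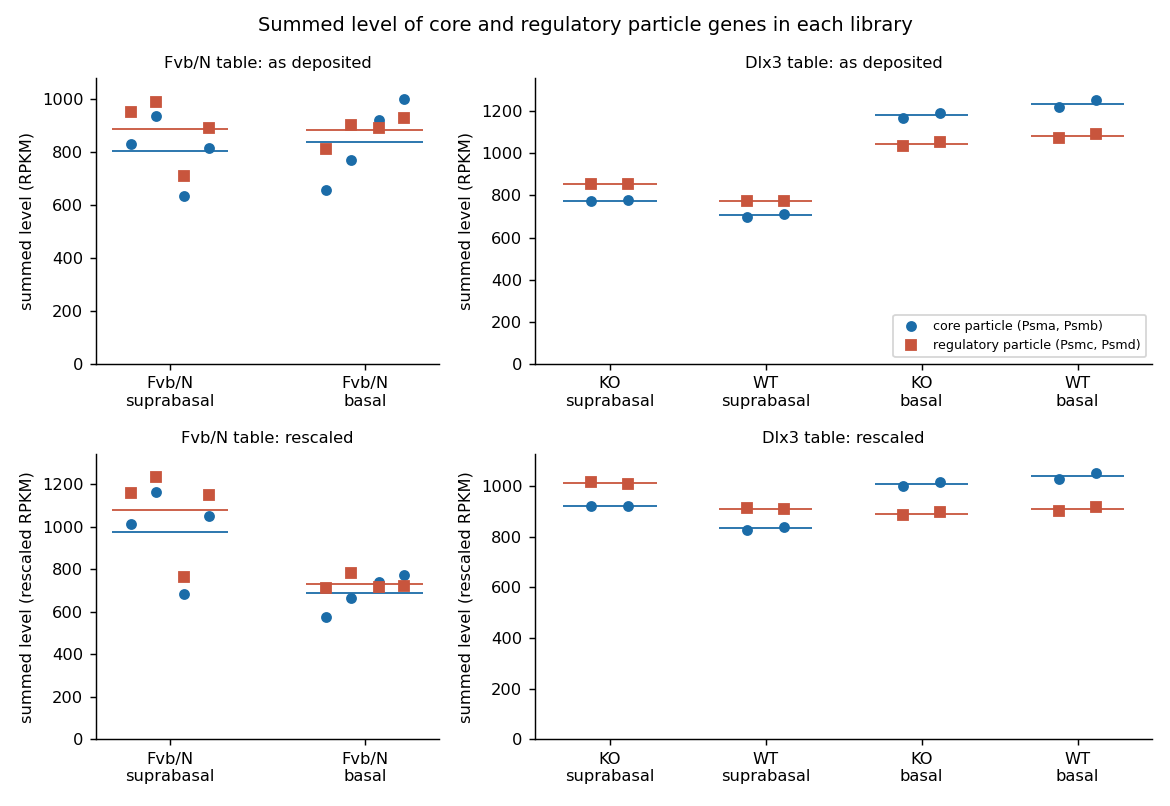
Summed level of the 19 core particle genes (circles) and the 20 regulatory particle genes (squares) in each library, in RPKM as deposited (top) and after median-ratio rescaling (bottom), with a line at the group mean. In the Dlx3 table the suprabasal libraries are lower than the basal ones as deposited, and the regulatory sum is above the core sum in suprabasal libraries and below it in basal libraries.

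RPKM are relative to the library, so each comparison is given as deposited and after rescaling the libraries by their median ratio over genes above 1 RPKM in all of them. This rescaling divides by 0.841 to 0.851 in suprabasal and 1.17 to 1.19 in basal libraries of the Dlx3 table, and by 0.776 to 0.927 in suprabasal and 1.14 to 1.29 in basal libraries of Fvb/N. Fold changes are on the scale of log2(RPKM + 1), which understates changes of low genes. Tests are limma fits over all genes, and a gene is called at a Benjamini-Hochberg adjusted p under 0.05 over all genes tested; only called genes are said to have risen or fallen. In bulk fractions, fewer cells of a type and less RNA per cell cannot be told apart.

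In Dlx3 KO epidermis, proteasome genes were broadly lower in the suprabasal than in the basal fraction as deposited, with the alpha ring falling furthest. Of 41 genes, 34 fell and 0 rose (limma; at an unadjusted p under 0.05, 35 lower and 1 higher), while of all 12146 genes tested 69.7% fell and 19.9% rose. The median log2 fold change was -0.50 for the proteasome genes and -0.39 for all genes. All 7 tested Psma genes fell, from -0.84 (Psma6) to -0.50 (Psma3). The 5 Psmc genes and 11 Psmd genes that fell had smaller changes as classes, with medians of -0.35 and -0.45 over all their members, against -0.68 for Psma. The 7 genes that did not pass were the interferon-induced Psmb8, Psmb9 and Psmb10, the ATPase Psmc5, and Psmd2, Psmd3 and Psmd7 of the regulatory particle. After rescaling, 17 genes fell and 14 rose, where 38.4% of all genes fell and 40.0% rose, and after quantile normalization 33 fell and 7 rose (53.6% and 29.4% of all genes).

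In Dlx3 WT epidermis nearly all proteasome genes were lower in the suprabasal fraction, the alpha ring again having the lowest class median. Of 41 genes, 39 fell and 0 rose in the suprabasal fraction (limma; 39 lower and 0 higher at an unadjusted p under 0.05, against 70.4% lower and 19.2% higher of all genes). After quantile normalization 32 fell and 5 rose, against 52.6% and 30.7% of all genes. The median was -0.65 for proteasome genes and -0.40 for all genes, and by class it was -0.88 for Psma, -0.68 for Psmb, -0.63 for Psmc, -0.60 for Psmd and -0.63 for Psme. Psmd3 (-0.07 ± 0.036 SE, adjusted p = 0.0808) and Psmb9 (-0.11 ± 0.095 SE, adjusted p = 0.288) were not called. After rescaling, 28 genes fell and 7 rose, where 39.0% of all genes fell and 40.5% rose. All 34 genes that fell in KO were among the 39 that fell in WT. The 7 genes that rose in WT after rescaling (Psmb10, Psmc5, Psmd1, Psmd2, Psmd3, Psmd7 and Psme3) were among the 14 that rose in KO.

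The sums of erythroid, fibroblast, T cell and melanocyte markers were lower in the suprabasal fraction of the Dlx3 table as well, with no marker at 0. The 5 erythroid markers summed to 0.792 and 1.21 RPKM in KO suprabasal libraries against 40.4 and 39.6 in KO basal libraries. In WT they summed to 0.874 and 1.12 in WT suprabasal libraries against 88.2 and 93.0 in WT basal libraries. The 6 fibroblast markers summed to 60.7 and 62.5 RPKM in KO suprabasal libraries against 120.7 and 127.0 in KO basal libraries. In WT they summed to 45.9 and 44.6 in WT suprabasal libraries against 134.6 and 138.0 in WT basal libraries. The lower sums came mainly from Dcn, at 30.7 and 32.0 RPKM in KO suprabasal against 111.7 and 117.9 in KO basal libraries. In WT Dcn was at 30.35 and 29.4 against 124.7 and 128.2. Col1a1, Col3a1 and Pdgfra were higher in the suprabasal libraries of both genotypes, as were Col1a2 and Lum in KO. In WT Col1a2 was lower and Lum overlapped. The 5 T cell markers measured summed to 10.9 and 10.6 RPKM in KO suprabasal libraries against 15.4 and 15.9 in KO basal libraries. In WT they summed to 9.60 and 10.3 in WT suprabasal libraries against 20.1 and 20.2 in WT basal libraries. The lower T cell sum in KO came from Thy1. Cd3g was higher in KO suprabasal libraries (1.60 and 1.70 against 1.25 and 1.29 RPKM), and the other T cell markers overlapped. Langerhans and myeloid markers were higher in the KO suprabasal libraries and lower in the WT ones, at 341.6 and 340.2 RPKM in KO suprabasal against 271.5 and 274.1 in KO basal libraries. In WT they were at 243.5 and 241.0 in WT suprabasal against 273.8 and 281.2 in WT basal libraries. The 4 melanocyte markers summed to 85.5 and 86.1 RPKM in KO suprabasal libraries against 91.5 and 93.9 in KO basal libraries. In WT they summed to 54.94 and 54.99 in WT suprabasal libraries against 81.1 in both WT basal libraries. Tyrp1 of this list was higher in KO suprabasal libraries, at 4.01 and 4.09 RPKM against 3.37 and 2.87 in KO basal libraries. The part of these cells in the fraction changes was not tested.

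Psma2, an alpha ring subunit, had the smallest p of both fraction comparisons. It was at 55.1 and 55.6 RPKM in KO suprabasal libraries against 89.9 and 90.0 in KO basal libraries. It was at 49.1 and 47.9 RPKM in WT suprabasal libraries against 93.1 and 93.8 in WT basal libraries. The fractions did not overlap, and the log2 fold change was -0.69 ± 0.022 (SE) in KO (adjusted p = 3.24e-09) and -0.93 ± 0.022 in WT (adjusted p = 4.86e-10, limma). Psma6 fell furthest of its ring in both, by 0.84 in KO and by 0.98 in WT on the log2 scale, and it still fell after rescaling, by 0.37 in KO and by 0.50 in WT. Psma3 changed least of the ring: it was at 29.0 and 29.2 RPKM in KO suprabasal libraries against 41.3 and 42.0 in KO basal libraries. It was at 27.2 and 29.1 RPKM in WT suprabasal libraries against 43.9 and 44.9 in WT basal libraries.

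Psmb6, the caspase-like catalytic subunit, fell furthest of the beta ring in both genotypes. It was at 52.7 and 51.3 RPKM in KO suprabasal libraries against 87.8 and 91.5 in KO basal libraries. It was at 46.7 and 45.6 RPKM in WT suprabasal libraries against 93.8 and 97.6 in WT basal libraries. Its log2 fold change was -0.78 ± 0.031 (SE) in KO (adjusted p = 1.33e-08) and -1.04 ± 0.031 in WT (adjusted p = 1.93e-09, limma), and it stayed lower after rescaling, at -0.31 and -0.56. The chymotrypsin-like subunit Psmb5 was at 62.6 and 61.2 RPKM in KO suprabasal libraries against 89.5 and 90.6 in KO basal libraries. It was at 52.0 and 51.5 RPKM in WT suprabasal libraries against 91.0 and 90.9 in WT basal libraries. The trypsin-like subunit Psmb7 was at 73.3 and 75.9 RPKM in KO suprabasal libraries against 112.1 and 109.8 in KO basal libraries. It was at 66.2 and 67.6 RPKM in WT suprabasal libraries against 116.1 and 116.4 in WT basal libraries. All 3 constitutive catalytic genes fell in both genotypes without overlap between fractions, and after rescaling too.

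The interferon-induced catalytic genes followed them only in part: as deposited none was called in KO, while Psmb8 and Psmb10 fell in WT. Psmb8 was at 3.86 and 2.96 RPKM in KO suprabasal libraries against 3.11 and 3.20 in KO basal libraries, which overlap (log2 fold change 0.08 ± 0.107 SE, adjusted p = 0.5, limma). In WT it was at 2.45 and 1.83 RPKM in suprabasal libraries against 3.40 and 3.25 in basal libraries and fell (-0.47 ± 0.107 SE, adjusted p = 0.00233), although not after rescaling (-0.12, adjusted p = 0.361). Psmb9 was at 1.67 and 1.24 RPKM in KO suprabasal libraries against 1.45 and 1.64 in KO basal libraries. It was at 1.301 and 1.11 RPKM in WT suprabasal libraries against 1.496 and 1.26 in WT basal libraries, so the fractions overlapped in both. Psmb10 was at 3.75 and 4.36 RPKM in KO suprabasal libraries against 4.02 and 3.89 in KO basal libraries. It was at 3.59 and 3.804 RPKM in WT suprabasal libraries against 4.13 and 4.44 in WT basal libraries. It fell in WT as deposited (-0.17 ± 0.063 SE, adjusted p = 0.0283) and rose after rescaling (0.22, adjusted p = 0.0101).

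Ratios within a library do not depend on how the library was scaled. The 3 interferon-induced genes together were at 4.92% and 4.55% of the 3 constitutive ones in KO suprabasal libraries, 4.45% and 4.10% in WT suprabasal libraries, 2.97% and 2.99% in KO basal libraries and 3.0% and 2.94% in WT basal libraries. By this sum the suprabasal libraries were thus above the basal ones in both genotypes, with no overlap. Of the single pairs, Psmb8 over Psmb5 overlapped in WT, at 4.70% and 3.56% in suprabasal against 3.74% and 3.58% in basal libraries. Psmb8 over Psmb5 in KO and the other pairs in both genotypes did not overlap. In Fvb/N the order was the other way, with 2.76%, 2.41%, 4.21% and 2.94% in suprabasal libraries and 3.45%, 3.62%, 6.72% and 5.13% in basal libraries, and 1 suprabasal library (library 3) lay within the basal range. This order did not hold for Psmb10 over Psmb7 alone. That ratio was 6.14%, 5.37%, 5.33% and 5.78% in Fvb/N suprabasal and 4.5%, 5.05%, 5.7% and 4.23% in basal libraries, which overlap.

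**Figure D2:**
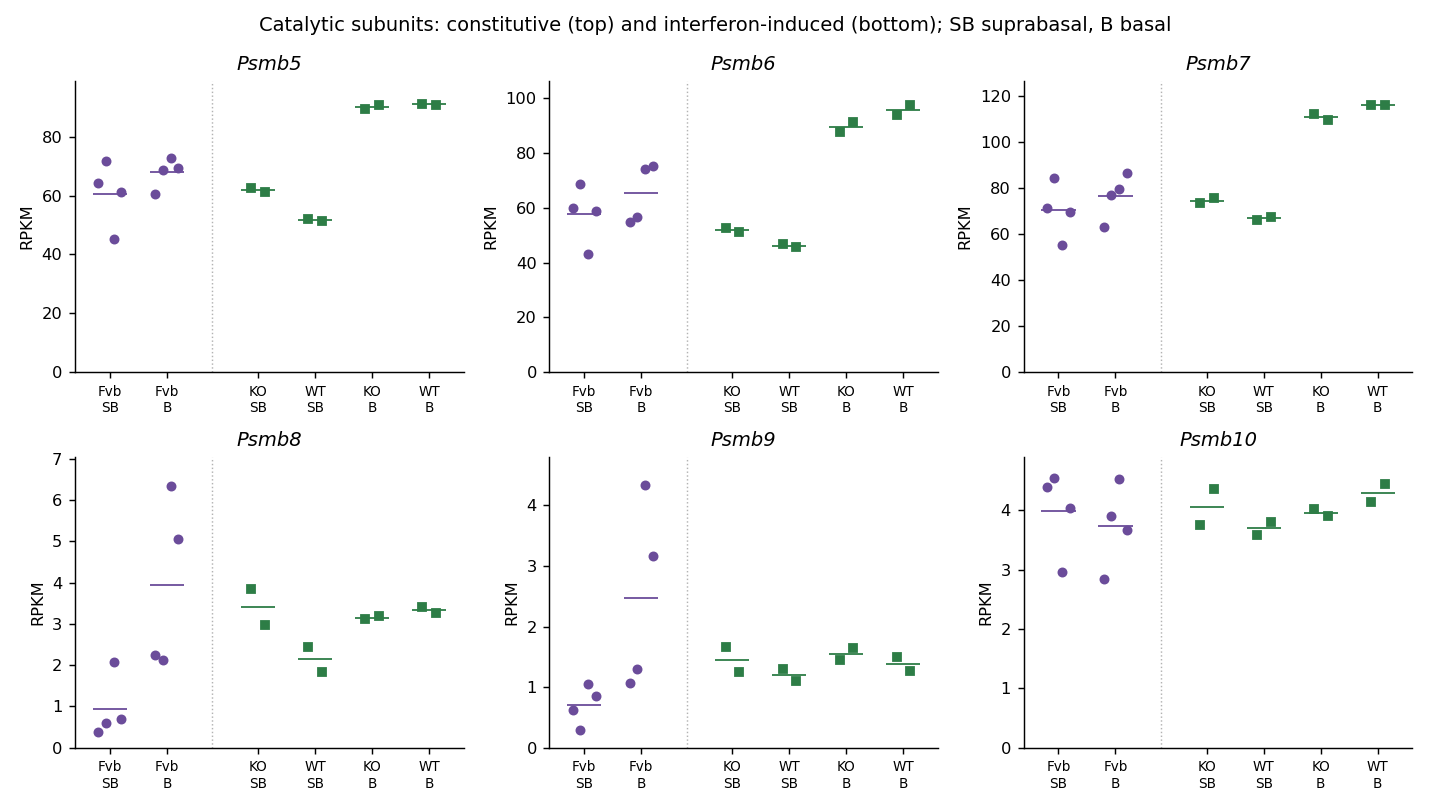
RPKM of the 3 constitutive catalytic genes (top) and the 3 interferon-induced ones (bottom) in each library (points) with the group mean (line); the dotted line parts the Fvb/N from the Dlx3 table, which have separate normalizations. Psmb5, Psmb6 and Psmb7 are lower in suprabasal than in basal libraries of the Dlx3 table, and Psmb8 is higher in KO than in WT suprabasal libraries.

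Within the ATPase ring the genes split. Psmc6 fell furthest, to 31.3 and 33.0 RPKM in KO suprabasal libraries against 49.4 and 51.8 in KO basal libraries, and to 32.1 and 31.4 in WT suprabasal libraries against 55.5 and 54.7 in WT basal libraries. Psmc5 was at 74.0 and 71.8 RPKM in KO suprabasal libraries against 75.0 and 72.3 in KO basal libraries. It was at 66.9 and 66.6 RPKM in WT suprabasal libraries against 75.2 and 78.7 in WT basal libraries. The KO fractions of Psmc5 overlapped (-0.01 ± 0.030 SE, adjusted p = 0.669, limma) and the WT fractions did not (-0.20 ± 0.030, adjusted p = 0.00013). After rescaling Psmc5 rose in both, by 0.46 ± 0.031 in KO (adjusted p = 6.53e-07) and 0.28 ± 0.031 in WT (adjusted p = 2.25e-05), while Psmc6 fell in both, by 0.18 in KO and by 0.30 in WT.

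Among the non-ATPase genes, Psmd3, a scaffold subunit of the lid, had the highest fold change in both genotypes and Psmd9, a chaperone for assembly of the ATPase base, fell furthest. Psmd3 was at 84.2 and 81.0 RPKM in KO suprabasal libraries against 76.0 and 80.1 in KO basal libraries. It was at 75.2 and 75.7 RPKM in WT suprabasal libraries against 77.2 and 81.7 in WT basal libraries. Neither change was called as deposited, and after rescaling it rose by 0.55 ± 0.034 (SE, adjusted p = 3.73e-07) in KO and 0.41 ± 0.034 (adjusted p = 3.17e-06) in WT. Psmd9 was at 5.94 and 5.71 RPKM in KO suprabasal libraries against 10.4 and 10.8 in KO basal libraries. It was at 5.56 and 5.09 RPKM in WT suprabasal libraries against 10.6 and 10.98 in WT basal libraries. It fell by 0.76 in KO (adjusted p = 2.07e-07) and by 0.90 in WT (adjusted p = 6.41e-08), and also after rescaling, by 0.34 and by 0.47. The other 2 base chaperones, Psmd5 and Psmd10, fell in both genotypes before and after rescaling as well. The ubiquitin-docking subunits Psmd1 and Psmd2 had small changes as deposited in KO (-0.06 each, adjusted p = 0.0367 and 0.0517) and larger ones in WT (-0.25 and -0.29, both called).

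Of the activators, Psme1 and Psme2, which form the interferon-induced 11S cap, fell in both genotypes with and without rescaling. Psme1 was at 36.8 and 37.1 RPKM in KO suprabasal libraries against 58.6 and 61.8 in KO basal libraries. It was at 34.6 and 32.6 RPKM in WT suprabasal libraries against 58.5 and 62.5 in WT basal libraries. Psme3, the nuclear activator, fell least as deposited (-0.34 in KO, -0.32 in WT) and rose after rescaling (0.12 and 0.15). It was at 29.6 and 29.8 RPKM in KO suprabasal libraries against 38.4 and 37.5 in KO basal libraries. It was at 30.1 and 30.3 RPKM in WT suprabasal libraries against 37.2 and 38.9 in WT basal libraries.

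The regulatory particle genes summed to 1.11 and 1.09 times the core particle genes in KO suprabasal libraries (1.106 and 1.095) and to 1.10 and 1.08 times in WT suprabasal libraries, against 0.885 and 0.882 in KO basal and 0.878 and 0.873 in WT basal libraries. In Fvb/N the same ratio was 1.146, 1.058, 1.124 and 1.093 in suprabasal libraries 1 to 4 and 1.233, 1.175, 0.967 and 0.929 in basal libraries 1 to 4. The Fvb/N groups overlap, and basal libraries 1 and 2, the ones with high suprabasal keratin sums, had the highest ratios of all; the part of the keratinocyte markers in this was not tested.

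**Figure D3:**
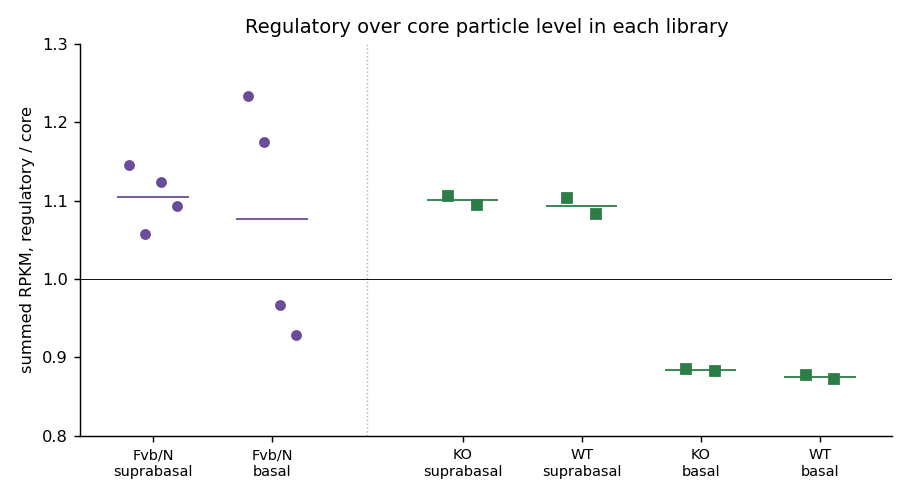
Summed RPKM of the 20 regulatory particle genes over that of the 19 core particle genes in each library (points) with the group mean (line); the vertical axis starts at 0.8. All Dlx3 suprabasal libraries lie above 1.08 and all Dlx3 basal libraries below 0.89, while the Fvb/N basal libraries spread from 0.929 to 1.233.

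In Fvb/N epidermis most proteasome genes did not differ between the fractions beyond the spread of the libraries as deposited. Of 41 genes, 2 rose (Psmc5 and Psmd7) and 9 fell in the suprabasal fraction, against 13.4% higher and 60.6% lower of all 11608 genes tested, and the median log2 fold change was -0.11 against -0.55 for all genes. The genes that fell were Psma5, Psmb8, Psmb9, Psme3, Psme4 and the Psmd genes Psmd5, Psmd9, Psmd10 and Psmd11. After rescaling, 19 rose and 3 fell (Psmb8, Psmd9 and Psme4), against 27.5% higher and 38.7% lower of all genes, with a median of 0.41 against -0.10, and after quantile normalization 5 rose and 1 fell (32.1% and 32.7% of all genes). By the run codes in the labels, the comparison gave 15 higher and 7 lower within the first (libraries 1 and 2, median 0.16; 19.8% and 63.7% of all genes) and 1 higher and 10 lower of 42 within the second (libraries 3 and 4, median -0.39; 10.5% and 47.3% of all genes), so these counts differed between the runs. Leaving out suprabasal library 3 gave 4 higher and 9 lower, leaving out basal library 1 gave 1 and 10, and leaving out basal library 2 gave 2 and 9. Without suprabasal library 1 or 2 or basal library 3, 0 rose and 7 fell in each case, and without basal library 4, 0 rose and 6 fell. In these fits without 1 library, 10.1% to 14.6% of all genes rose and 54.3% to 65.0% fell. The column headers of the deposited table give the run codes otherwise, all suprabasal libraries in one and all basal libraries in the other, and then run and fraction cannot be told apart.

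Psmc5, the highest change in Fvb/N, was at 110.6, 117.0, 66.6 and 105.4 RPKM in suprabasal libraries 1 to 4 and 66.9, 73.8, 63.1 and 64.3 in basal libraries 1 to 4. Suprabasal library 3 lies among the basal libraries and the other 3 lie above them all. The log2 fold change was 0.54 ± 0.182 (SE, adjusted p = 0.0232, limma), and 1.07 ± 0.228 after rescaling (adjusted p = 0.00315). Psmd7, a lid subunit that pairs with the deubiquitinase Psmd14, was at 76.7, 83.0, 49.4 and 64.4 RPKM in suprabasal libraries and 46.2, 55.2, 41.5 and 46.5 in basal libraries (0.50 ± 0.175, adjusted p = 0.0265).

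Psme4, which encodes the activator PA200, had the smallest p in Fvb/N. It was at 7.70, 7.29, 11.7 and 7.72 RPKM in suprabasal libraries and 16.3, 16.5, 18.7 and 19.6 in basal libraries, with no overlap (-0.99 ± 0.155 SE, adjusted p = 0.000433, limma). Psmd9 was at 3.71, 4.27, 4.84 and 4.49 RPKM in suprabasal libraries and 7.21, 8.04, 10.4 and 11.2 in basal libraries (-0.92 ± 0.153 SE, adjusted p = 0.000572). For both genes the groups are apart, and both fell after rescaling too, by 0.49 (Psme4) and by 0.46 (Psmd9). Psma5 was at 24.2, 26.4, 28.4 and 26.2 RPKM in suprabasal libraries and 27.2, 35.3, 42.6 and 50.9 in basal libraries (-0.52 ± 0.180, adjusted p = 0.0263), with 1 suprabasal library above the lowest basal one, and the change was 0.004 after rescaling. The highest and lowest of the other rings were not called as deposited: Psma7 (0.12), Psmb3 (0.16), Psmc4 (-0.23) and Psme2 (-0.18).

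Psmb8 fell furthest of all members in Fvb/N. It was at 0.389, 0.594, 2.07 and 0.686 RPKM in suprabasal libraries and 2.25, 2.14, 6.35 and 5.05 in basal libraries, so that the groups did not overlap as deposited (-1.33 ± 0.337 SE, adjusted p = 0.00587, limma). After rescaling they did, with suprabasal library 3 at 2.23 against 1.97 and 1.85 in basal libraries 1 and 2 (-1.01, adjusted p = 0.0187). Psmb9 was at 0.617, 0.293, 1.04 and 0.861 RPKM in suprabasal libraries and 1.07, 1.301, 4.33 and 3.17 in basal libraries (-0.93 ± 0.304, adjusted p = 0.0196). Psmb10 was at 4.39, 4.54, 2.96 and 4.03 RPKM in suprabasal libraries and 2.83, 3.90, 4.53 and 3.66 in basal libraries, which overlap. The 11 Langerhans and myeloid markers, listed for immune cells that live in the epidermis, moved with Psmb8 and Psmb9 as a sum. They summed to 58.4, 58.8, 134.6 and 60.3 RPKM in suprabasal libraries and 226.6, 238.4, 545.9 and 395.2 in basal libraries, none of them at 0. Epcam was the highest of the list in every suprabasal library, at 45.6, 45.6, 50.4 and 46.55 RPKM. In basal libraries Epcam was at 52.9, 63.7, 69.9 and 77.2 RPKM. Ptprc, Tyrobp, Fcer1g and Lyz2 overlapped between the fractions. The part of these markers in the result was not tested. The 5 T cell markers measured summed to 1.35, 1.71, 18.4 and 4.85 RPKM in suprabasal libraries and 11.4, 11.8, 34.0 and 30.1 in basal libraries. The constitutive subunits showed no such split: Psmb5 was at 64.1, 71.6, 45.2 and 61.3 RPKM in suprabasal libraries against 60.6, 68.8, 72.7 and 69.5 in basal libraries, Psmb6 at 60.1, 68.7, 43.3 and 58.9 against 54.9, 56.8, 74.3 and 75.3, and Psmb7 at 71.5, 84.5, 55.5 and 69.7 against 63.0, 77.1, 79.5 and 86.5.

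**Figure D4:**
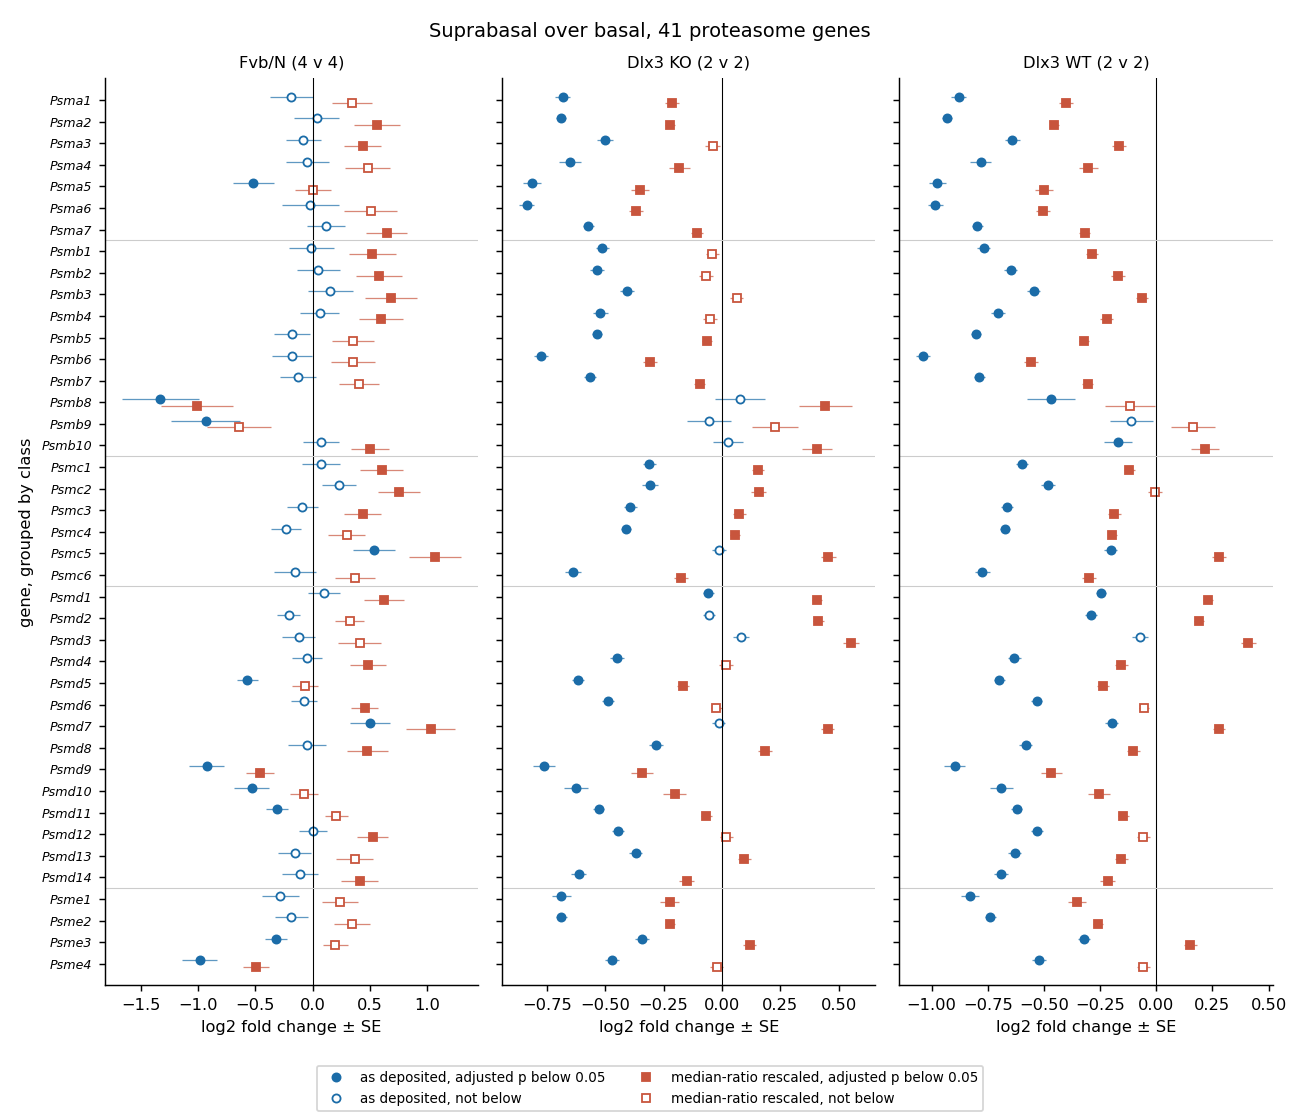
Log2 fold change of suprabasal over basal for the 41 tested genes, with its standard error, in Fvb/N (left), Dlx3 KO (middle) and Dlx3 WT (right), as deposited (circles) and after median-ratio rescaling (squares); filled symbols have an adjusted p below 0.05. The rescaling shifts nearly every gene to the right by a like amount, and Psmc5, Psmd3 and Psmd7 lie right of the other genes of their classes in both Dlx3 genotypes.

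Loss of Dlx3 was accompanied by higher proteasome transcripts in the suprabasal fraction. Of 41 genes, 22 rose and 0 fell in KO against WT suprabasal libraries (limma; 25 higher and 0 lower at an unadjusted p under 0.05), while 21.6% of all genes rose and 15.7% fell. The median log2 fold change was 0.12 for proteasome genes and 0.01 for all genes, and 39 of the 41 estimates were above 0. After median-ratio rescaling 23 rose and 0 fell (24.1% and 15% of all genes), after quantile normalization 11 rose and 2 fell (15.9% and 19.3%), and with each library scaled to the same RPKM total 10 rose and 3 fell (10% and 36.8% of all genes). The genes that rose came from all classes: 4 of 7 tested Psma, 6 of 10 Psmb, 4 of 6 Psmc, 7 of 14 Psmd and 1 of 4 Psme. The changes are small, and the test rests on libraries that differ little: the medians of the percent difference between the 2 libraries of a group were 2.50 to 2.97 for genes of at least 5 RPKM.

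Psmb5 had the smallest p, at 62.6 and 61.2 RPKM in KO suprabasal libraries against 52.0 and 51.5 in WT suprabasal libraries, which do not overlap (0.25 ± 0.022 SE, 1.19-fold, adjusted p = 7.68e-05, limma). Psmb6 was at 52.7 and 51.3 RPKM in KO against 46.7 and 45.6 in WT suprabasal libraries (0.17 ± 0.031, adjusted p = 0.00318), and Psmb7 at 73.3 and 75.9 against 66.2 and 67.6 (0.16 ± 0.025, adjusted p = 0.00165). All 3 constitutive catalytic genes thus rose. Psmb8 had the highest change of all members, at 3.86 and 2.96 RPKM in KO against 2.45 and 1.83 in WT suprabasal libraries (0.49 ± 0.107, 1.40-fold, adjusted p = 0.00766). The linear KO over WT suprabasal ratio of Psmb8 given in the authors' deposited table is 1.57, that of Psmb5 is 1.20 and that of Psmd8 is 1.25. Psmb9, at 1.67 and 1.24 RPKM in KO against 1.301 and 1.11 in WT suprabasal libraries, and Psmb10, at 3.75 and 4.36 against 3.59 and 3.804, were not called.

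Psmd8, a lid subunit, was at 67.6 and 66.2 RPKM in KO suprabasal libraries against 53.5 and 53.7 in WT suprabasal libraries (0.32 ± 0.031 SE, 1.24-fold, adjusted p = 0.000135, limma). Psmc3, an ATPase, was at 53.8 and 53.0 RPKM in KO against 45.4 and 45.6 in WT suprabasal libraries (0.23 ± 0.028, adjusted p = 0.00048), and Psma2 was at 55.1 and 55.6 against 49.1 and 47.9 (0.19 ± 0.022, adjusted p = 0.00035). These groups do not overlap. Psme1 was the activator with the highest change, at 36.8 and 37.1 RPKM in KO against 34.6 and 32.6 in WT suprabasal libraries (0.13 ± 0.041, adjusted p = 0.0316). The lowest changes of the classes were not called: Psmd6 (-0.04), Psme3 (-0.03), Psmc6 (0.01), Psma4 (0.04) and Psmb3 (0.05).

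Markers of other cells moved with this comparison. The 11 Langerhans and myeloid markers summed to 341.6 and 340.2 RPKM in KO suprabasal libraries against 243.5 and 241.0 in WT suprabasal libraries, with 1 of the 11 below 1 RPKM in WT and none at 0. The 7 suprabasal keratinocyte markers summed to 53270 and 52900 in KO against 45680 and 45950 in WT, the 7 basal markers to 7625 and 7540 against 8341 and 8430, and the 4 melanocyte markers to 85.5 and 86.1 against 54.94 and 54.99. Krt14 of the basal markers went the other way, at 2913 and 2873 RPKM in KO against 2865 and 2867 in WT. The 6 fibroblast markers summed to 60.7 and 62.5 RPKM in KO against 45.9 and 44.6 in WT suprabasal libraries, and the 5 T cell markers to 10.9 and 10.6 against 9.60 and 10.3, with none at 0. Of the T cell markers only Thy1 was higher in KO, at 7.87 and 7.62 RPKM against 6.03 and 7.095. Cd3e and Nkg7 were lower in KO, and Cd3g and Cd3d overlapped. The part of all these markers in the result was not tested.

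**Figure D5:**
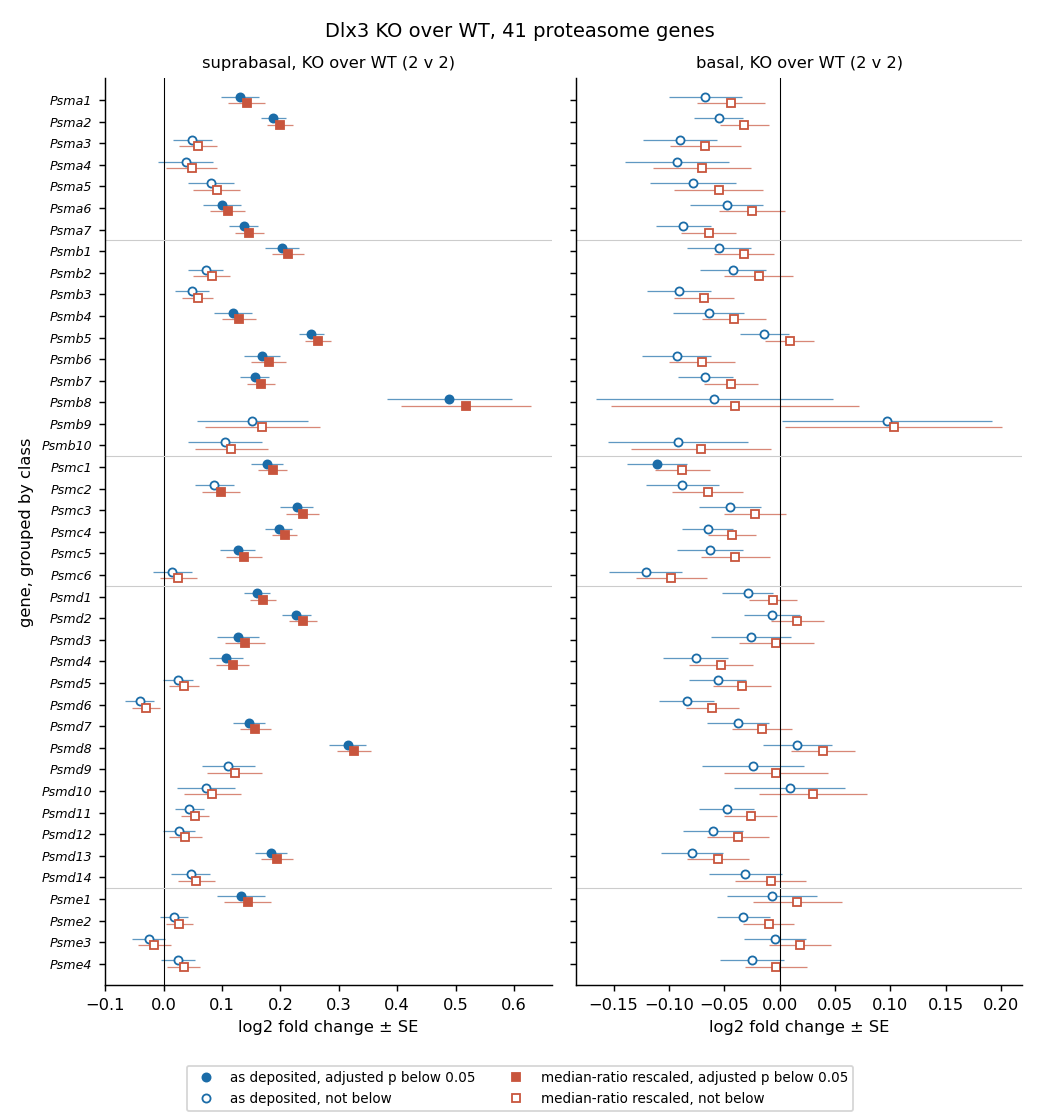
Log2 fold change of Dlx3 KO over WT for the 41 tested genes, with its standard error, in the suprabasal (left) and basal (right) fraction, as deposited (circles) and after median-ratio rescaling (squares); filled symbols have an adjusted p below 0.05. In the suprabasal fraction 39 of 41 estimates lie above 0 and Psmb8 and Psmd8 lie furthest right, and in the basal fraction 38 of 41 lie below 0 as deposited with 1 called.

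In the basal fraction the proteasome genes hardly differed between the genotypes. Of 41 genes, 0 rose and 1 fell in KO against WT basal libraries (limma; 0 higher and 13 lower at an unadjusted p under 0.05), where 4.23% of all genes rose and 2.98% fell, and the median was -0.06 against -0.02 for all genes. The gene that fell was Psmc1, an ATPase, at 60.7 and 63.2 RPKM in KO basal libraries against 67.2 and 66.7 in WT basal libraries (-0.11 ± 0.027 SE, adjusted p = 0.0422), and it was not called after rescaling (-0.09, adjusted p = 0.0825). After rescaling 0 rose and 0 fell, against 4.79% and 1.8% of all genes, and after quantile normalization again 0 and 0, against 4.22% and 1.85%. Psmb9 had the highest estimate (0.10 ± 0.095, adjusted p = 0.609) and Psmc6 the lowest (-0.12 ± 0.033, adjusted p = 0.0682). The other ends of the classes were Psma6 (-0.05) and Psma4 (-0.09), Psmb6 (-0.09), Psmc3 (-0.04), Psmd8 (0.02) and Psmd6 (-0.08), and Psme3 (0.00) and Psme2 (-0.03), none of them called. Psmb5 was at 89.5 and 90.6 RPKM in KO basal against 91.0 and 90.9 in WT basal libraries (-0.01 ± 0.022, adjusted p = 0.763), and Psmb8 at 3.11 and 3.20 against 3.40 and 3.25 (-0.06 ± 0.107, adjusted p = 0.801). Marker sums differed between these basal libraries. Suprabasal keratinocyte markers summed to 5471 and 5507 RPKM in KO against 3598 and 3619 in WT. Melanocyte sums were 91.5 and 93.9 against 81.1 in both. Erythroid sums were 40.4 and 39.6 against 88.2 and 93.0. T cell sums were 15.4 and 15.9 against 20.1 and 20.2, and fibroblast sums 120.7 and 127.0 against 134.6 and 138.0. Basal keratinocyte and Langerhans sums overlapped. The part of these markers was not tested.

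The test of whether the suprabasal over basal change differs between KO and WT was called, with a less negative change in KO, for 21 of 41 genes and with a more negative one for 0 (limma; 30 and 0 at an unadjusted p under 0.05), against 14.4% and 8.08% of all genes. This test uses the same suprabasal libraries as the comparison above, so the counts are not independent of each other. The median difference of log2 fold changes was 0.17 for proteasome genes and 0.03 for all genes, and after rescaling the counts were again 21 and 0 (13.7% and 9.19% of all genes), and after quantile normalization 12 and 0 (8.72% and 11.2%). Psmb5 had the smallest p (0.27 ± 0.031 SE, adjusted p = 0.000896), Psmb8 the highest difference (0.55 ± 0.152, adjusted p = 0.0325) and Psmc1 the highest of the ATPases (0.29 ± 0.038, adjusted p = 0.00177). Psmd8 (0.30 ± 0.043, adjusted p = 0.00261), Psma2 (0.24 ± 0.031, adjusted p = 0.00148), Psmb6 (0.26 ± 0.044, adjusted p = 0.00457) and Psmb7 (0.22 ± 0.035, adjusted p = 0.00376) were called too. By class the counts were 3 of 7 Psma, 7 of 10 Psmb, 5 of 6 Psmc, 6 of 14 Psmd and 0 of 4 Psme. The lowest differences of each class were those of Psme3 (-0.02), Psmd6 (0.04), Psmb9 (0.06), Psma4 (0.13) and Psmc6 (0.14), and the highest activator was Psme1 (0.14), none of them called.

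Genes that work with the proteasome were read beside these results. Of 9 transcription factors linked to proteasome genes, 2 rose and 6 fell in the suprabasal fraction in both KO and WT, with medians of -0.53 and -0.47 against -0.39 and -0.40 for all genes. Of all genes 69.7% fell in KO and 70.4% in WT, near the 6 of 9. After rescaling 3 rose and 4 fell in both, against 40.0% and 38.4% of all genes in KO and 40.5% and 39.0% in WT. The 2 that rose as deposited were Nfe2l3, a relative of Nfe2l1, and Nfe2l1 itself. Nfe2l3 was at 21.3 and 21.1 RPKM in KO suprabasal libraries against 2.76 and 2.87 in KO basal libraries (2.54 ± 0.037 SE, adjusted p = 2.36e-11, limma), and at 15.6 and 14.97 in WT suprabasal libraries against 2.77 and 2.78 in WT basal libraries (2.11 ± 0.037, adjusted p = 7.81e-11). In Fvb/N it was at 26.6, 25.5, 15.4 and 23.9 RPKM in suprabasal libraries and 6.52, 6.07, 3.17 and 4.36 in basal libraries (1.995 ± 0.230, adjusted p = 0.000106). Nfe2l1 was at 53.0 and 53.5 RPKM in KO suprabasal libraries against 31.5 and 31.4 in KO basal libraries. It was at 48.4 and 46.7 RPKM in WT suprabasal libraries against 30.9 in both WT basal libraries. The Fvb/N fractions overlapped, with Nfe2l1 at 42.1, 40.5, 32.5 and 41.2 RPKM in suprabasal and 41.3, 40.7, 28.3 and 30.4 in basal libraries. Of the 9 factors, 1 rose (Nfe2l3) and 6 fell in Fvb/N, against 13.4% and 60.6% of all genes. Nfe2l3 and Nfe2l1 also rose in KO against WT suprabasal libraries, Nfe2l3 by 0.45 ± 0.037 (adjusted p = 5.61e-05) and Nfe2l1 by 0.16 ± 0.025 (adjusted p = 0.00159). The CCAAT-binding factor Nfya fell in all 3 fraction comparisons, in Fvb/N to 5.0, 4.51, 5.22 and 4.53 RPKM in suprabasal libraries against 17.5, 16.7, 14.9 and 14.8 in basal libraries (-1.54 ± 0.108, adjusted p = 5.32e-05).

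Of the 7 assembly and inhibitor genes measured, 1 rose and 6 fell in both Dlx3 genotypes as deposited. That is near the share of all genes (69.7% lower and 19.9% higher in KO, 70.4% and 19.2% in WT). After rescaling 4 fell, with 2 higher in KO and 1 in WT. Of all genes 38.4% fell and 40.0% rose in KO after rescaling, and 39.0% and 40.5% in WT. Pomp, the core assembly chaperone, fell in the Dlx3 table, at 60.1 and 59.3 RPKM in KO suprabasal libraries against 87.9 and 88.4 in KO basal libraries. It was at 55.8 and 57.0 RPKM in WT suprabasal libraries against 86.6 and 90.8 in WT basal libraries. In Fvb/N it rose (0.68 ± 0.217 SE, adjusted p = 0.0185, limma), at 111.6, 125.9, 66.0 and 110.2 RPKM in suprabasal libraries and 48.0, 67.9, 67.4 and 69.9 in basal libraries, where suprabasal library 3 lies among the basal libraries; these directions of Pomp held after rescaling. Of 14 receptors and deubiquitinases, 11 fell in KO, 13 in WT and 8 in Fvb/N, and of 8 ubiquitin and p97 genes 7, 8 and 4 fell, where 69.7% of all genes fell in KO, 70.4% in WT and 60.6% in Fvb/N. These counts hold as deposited only: after rescaling 2 receptors and deubiquitinases fell and 5 rose in KO, 3 and 6 in WT, and 2 and 4 in Fvb/N, and of the ubiquitin and p97 genes 2 and 4, 2 and 4, and 0 and 3. Of all genes, 38.4% fell and 40.0% rose in KO after rescaling, 39.0% and 40.5% in WT, and 38.7% and 27.5% in Fvb/N. In KO against WT suprabasal libraries, where 21.6% of all genes rose and 15.7% fell as deposited, 4 of the 14 rose and 1 fell, which is near that share. Sem1 (0.20 ± 0.025, adjusted p = 0.000493) and Adrm1 (0.14 ± 0.023, adjusted p = 0.00175) had the smallest p. Of the 8, 5 rose and 1 fell, led by the unfolding ATPase Vcp at 135.1 and 136.1 RPKM in KO against 118.6 and 120.2 in WT (0.18 ± 0.020, adjusted p = 0.000234).

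Of 9 tested genes of interferon-induced antigen processing, 6 rose and 2 fell in KO and 6 rose and 3 fell in WT suprabasal against basal libraries, with medians of 0.25 and 0.21, where 19.9% of all genes rose and 69.7% fell in KO and 19.2% and 70.4% in WT. After rescaling 8 rose and 1 fell in KO (40.0% and 38.4% of all genes), and 7 and 1 in WT (40.5% and 39.0%). In KO against WT suprabasal libraries 5 rose and 0 fell (limma; after rescaling 6 and 0; of all genes 21.6% rose and 15.7% fell as deposited), with a median of 0.26 against 0.01 for all genes. H2-D1, an antigen-presenting molecule, was at 85.4 and 82.0 RPKM in KO against 71.2 and 68.6 in WT suprabasal libraries (0.26 ± 0.031 SE, adjusted p = 0.000379), and Tap1, the peptide transporter beside Psmb9, at 14.4 and 13.8 against 11.2 and 11.6 (0.28 ± 0.036, adjusted p = 0.000577). In Fvb/N 7 of the 9 fell and 0 rose in the suprabasal fraction (limma; 2 fell and 0 rose after rescaling; of all genes 60.6% fell and 13.4% rose as deposited), led by Irf1 at 0.161, 0.141, 0.474 and 0.288 RPKM in suprabasal libraries against 1.32, 1.17, 1.97 and 2.03 in basal libraries (-1.04 ± 0.146, adjusted p = 0.000244). Of all genes, 38.7% fell and 27.5% rose in Fvb/N after rescaling. Between KO and WT basal libraries 0 genes of these related lists were called as deposited.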

How the data were processed

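RPKM per gene were deposited by the authors, after TopHat alignment to mm10 and quantification in Partek, per the file headers; bcl2fastq 2.20.0.422 and TopHat2 2.1.1 are named in the submitters' processing notes. The authors' deposited tables also give a linear ratio (fold) for each comparison, per the file headers. The annotation, the rule for reads with several hits and the use of strand are not given in the sources used here. Because each table has its own normalization, no level is set against one from the other table.

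RPKM plus 1 was taken to log2 and fitted with limma 3.58.1 (R 4.3.3), its prior variance following mean level, over 8 libraries in each table, for genes at 1 RPKM in at least 4 (Fvb/N) or 2 (Dlx3) libraries. Residual and prior degrees of freedom were 6 and 3.2 in Fvb/N and 4 and 4.8 in Dlx3. Tables and figures used Python 3.11.15, pandas 2.3.3, numpy 2.4.6 and matplotlib 3.10.9. The fit was tested on simulated data. Nothing in the labels says that libraries came from separate animals, so p-values measure only the spread between libraries, which may be technical. Of low values, 58.8% to 65.9% were whole reads within 0.05 read at the estimated depth (10.0% by chance), too few to recover counts. Their precision was not used in a test.

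Same-numbered Fvb/N libraries had correlations of deviations of 0.507, 0.567, 0.555 and 0.121 over 11608 genes. Different numbers gave 0.587 (basal 2, suprabasal 1), 0.36 (basal 1, suprabasal 2), 0.467 (basal 4, suprabasal 3) and 0.014 (basal 3, suprabasal 4). Pairs of library 1 or 2 with library 3 or 4 ranged from -0.589 to -0.064. The data therefore do not pair libraries by number, and the labels do not say what a number marks. Run codes come from the labels.

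The members and lists were chosen with earlier results of these data known. Values are given for the catalytic genes, the highest and lowest change of each class, the smallest p of each comparison and up to 3 called genes of each related list. Psmb8 and other low genes have understated fold changes. Paaf1 and Trdc were not analysed here.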

Additional observations from a re-analysis of the deposited data

Results flagged for a closer look

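Psme4 in Fvb/N suprabasal library 3 was at 11.73 RPKM, the highest of its group of 4 libraries, and its gap to the next library was 0.903 of the range of the group, above Dixon's 95% critical value for 4 samples. The other 3 libraries were at 7.70, 7.29 and 7.72 RPKM. It was 1 of 30 group tests over 15 members, and chance flags about 1 in 20 groups.

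The suprabasal over basal change differed between Dlx3 KO and Dlx3 WT, by the limma test of the difference itself, for 7 of the members described by name. The KO minus WT difference of log2 fold changes was 0.548 for Psmb8 (adjusted p = 0.0325), 0.299 for Psmd8 (adjusted p = 0.00261), 0.288 for Psmc1 (adjusted p = 0.00177), 0.267 for Psmb5 (adjusted p = 0.000896), 0.263 for Psmb6 (adjusted p = 0.00457), 0.243 for Psma2 (adjusted p = 0.00148) and 0.223 for Psmb7 (adjusted p = 0.00376). Psmb8 was at 3.86 and 2.96 RPKM in KO suprabasal libraries, 2.45 and 1.83 in WT suprabasal libraries, 3.11 and 3.20 in KO basal libraries and 3.40 and 3.25 in WT basal libraries.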

How the results depend on the processing

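Fraction comparisons depended on how the libraries were scaled, and the cause was not tested. In Fvb/N, 2 members rose and 9 fell as deposited. Median-ratio rescaling gave 19 and 3, quantile normalization 5 and 1, rescaling with the replicate block 19 and 4, the first run code alone 15 and 7, the second 1 and 10, and leaving out suprabasal libraries 3 and 4 together 5 and 8. Without those 2 libraries 1659 of all 11333 genes rose and 7064 fell. With rescaling and the block 3313 of all 11608 genes rose and 4683 fell. The median change of members reversed to 0.413 after rescaling with or without the block, 0.098 after quantile normalization, 0.156 within the first run and 0.032 without those 2 libraries. Psma5 reversed to 0.004 after rescaling with or without the block. Leaving out 1 Fvb/N library gave 0 to 4 higher (0 without basal 3, basal 4, suprabasal 1 or suprabasal 2, 4 without suprabasal 3) and 6 to 10 lower (6 without basal 4). Both Fvb/N genes that rose therefore depend on single libraries.

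In WT, 0 rose and 39 fell as deposited. Members that rose numbered 7 after rescaling with or without the block, 5 after quantile normalization and 1 at a common RPKM total. At a common total 3177 of all 12146 genes rose and 7159 fell in WT. Reversed values were 0.218 for Psmb10, 0.278 for Psmc5, 0.152 for Psme3 and 0.409 for Psmd3 after rescaling with or without the block, 0.093, 0.13 and 0.307 for Psmb10, Psmc5 and Psmd3 after quantile normalization, and 0.003 and 0.135 for Psmc5 and Psmd3 at a common total. Leaving out 1 library gave 0 higher and 38 to 40 lower. In KO, 0 rose and 34 fell. Rescaling gave 14 and 17, with the block 15 and 18, and 7 rose after quantile normalization, 3 at a common total and 1 with only the 2 groups in the fit. At a common total 2728 of all 12146 genes rose and 7938 fell in KO. With only the 2 groups 2386 of all 11944 genes rose and 8389 fell. Reversed values were 0.46 for Psmc5 and 0.118 for Psme3 after rescaling with or without the block, 0.202 and 0.076 for Psmc5 after quantile normalization and at a common total, and 0.228 for Psmb9 after rescaling with the block. Leaving out 1 library gave 0 to 1 higher and 33 to 34 lower.

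In KO against WT basal libraries the 1 lower call became 0 after rescaling (with or without the block), quantile normalization, a common total, no filter, no intensity trend and only the 2 groups in the fit; leaving out 1 library gave 0 to 1 lower (0 without KO basal 1, WT basal 1, WT basal 2, WT suprabasal 1 or WT suprabasal 2) and 0 higher. In KO against WT suprabasal libraries 22 rose; quantile normalization gave 11 higher and 2 lower, a common total 10 and 3, and leaving out 1 library 17 to 22 higher and 0 lower. For the difference between genotypes 21 were called higher; quantile normalization gave 12, a common total 12 and 1 lower, and leaving out 1 library 15 to 23 higher and 0 lower. At a common total, 693 of all 12146 genes were called higher and 2791 lower for the difference between genotypes. A common total moves the median of all genes in KO against WT suprabasal from 0.01 to -0.09.

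The replicate block without rescaling gave the same counts of members in Fvb/N (2 and 9) and in the Dlx3 comparisons (0 and 39 in WT, 0 and 34 in KO, 0 and 1 between basal libraries, 22 and 0 between suprabasal libraries), and 24 in place of 21 for the difference between genotypes. In the Dlx3 table same-numbered libraries share only a number, with correlations of deviations from -0.047 to 0.056. Over all members described by name, counts and alternatives, 22 values reversed, 70 lost and 39 gained a call and 1413 kept direction and call.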
